A study of Saccharomyces cerevisiae with 16 samples.

Results

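The response of wild-type (WT) budding yeast to heat shock was followed through the chromosomal positions of RNA polymerase II (RNAPII), which makes messenger RNA. RNAPII was recovered from cross-linked, sonicated chromatin with the antibody 8WG16, which recognizes its subunit Rpb1, and enriched regions were called as peaks over input chromatin (ChIP-seq). The members were taken by label, as the peak lists of the strain W303a (genotype WT) after heat shock at 37 °C for 12 min, in 2 replicates, and of the same strain left untreated at 30 °C, in 2 replicates. These are 4 of the 8 RNAPII peak lists in a series of 16 samples, and the other 4 lists are from ubc9-6, a strain with a mutated SUMO-conjugating enzyme and reduced sumoylation, under the same treatments. Before treatment every culture had grown to mid-log phase at 30 °C in SC (synthetic complete) medium. The study's methods call the replicates independent where they describe cultures at 30 °C, and the labels only number them, without saying whether the heat shocked cultures were separate. Differences were therefore read only against the spread between these lists.

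When budding yeast is shifted to a higher temperature, the transcription factor Hsf1 activates chaperone genes through heat shock elements (HSEs), arrays of alternating GAA and TTC units. Msn2 and Msn4 activate a broader set of stress genes through the stress response element (STRE). Genes for ribosomal proteins, ribosome assembly and other growth functions are known to be transcribed less during the same minutes, and Gcn4 is the activator of most amino acid biosynthesis genes.

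A peak list tells where RNAPII was enriched enough to be called and how strongly, and not how many reads lie behind it. The study's methods give a nominal number of reads per sample, but the reads obtained for each list are not in the files used here, so no counting interval can be given. An open reading frame (ORF) here is the span from start to stop codon of a protein-coding gene in the R64 annotation (sacCer3 coordinates), and 6002 such ORFs lie on the 16 nuclear chromosomes. An ORF counted as occupied in a list if peaks covered a share of 0.5 or more of it. Peaks were ranked within each list by the deposited fold enrichment over input, with rank 1 the strongest, and an ORF took the rank of the peak that held most of it. A rank percentile of 100 is the strongest peak of a list and 0 the weakest. One peak can hold several neighboring ORFs, which then share its rank. The rank of an ORF is therefore that of a peak and not always of one gene, and an ORF is said to lie alone only where its peak held no other ORF.

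The heat shock lists held 1540 and 1496 peaks, against 1495 and 1525 in the untreated lists, so the number of peaks was alike. Peaks covered 2852422 and 2772801 bp of the nuclear genome after heat shock, against 3017567 and 3031347 bp in untreated cells. Occupied ORFs numbered 1579 and 1505 after heat shock, against 1702 and 1652. The groups did not overlap in either measure. Covered length was on average 2812612 ± 56301 bp after heat shock and 3024457 ± 9744 bp in untreated cells (SD, n = 2 each), and occupied ORFs fell by 8.05%. However, 2 lists against 2 can give no two-sided exact permutation p below 0.333, which is the value both measures had. In all, 1167 ORFs were occupied in all 4 lists and 3919 in none. Replicates differed too: 406 ORFs were occupied in only 1 of the 2 heat shock lists and 488 in only 1 of the 2 untreated lists. Untreated replicate 1 lay closer to the heat shock lists than untreated replicate 2 at many stress genes. Of 30 chaperone genes occupied in all 4 lists, 25 ranked better in untreated replicate 1 than in untreated replicate 2, against 628 of all 1167 ORFs, and values for both are therefore given throughout. Of the mating-type genes that mark the cells, 4 to 6 of the 7 a-specific genes and none of the 4 alpha-specific genes were occupied in each list.

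The strongest peak of both heat shock lists lay on HSP26 (YBR072W, chromosome II, 382030 to 382674), which encodes a small heat shock protein that holds unfolded proteins in aggregates from which they can be recovered. Its fold enrichment was 14.2 and 16.3 after heat shock, against 6.84 and 4.61 in untreated cells, and its rank was 1 and 1 against 33 and 64. HSP26 shared this peak with YBR071W and YBR072C-A. Untreated lists were led instead by peaks on CCW12 and AHP1 (a cell wall protein and a thioredoxin peroxidase) in replicate 1 and on TDH3 (glyceraldehyde-3-phosphate dehydrogenase) in replicate 2. PGK1 (phosphoglycerate kinase) and the CCW12 peak stayed among the first 5 peaks of all 4 lists, so these growth genes kept their place beside the stress genes. A peak on chromosome IV (720438 to 721869 in heat shock replicate 1) that held no protein-coding ORF ranked 2 and 2 after heat shock, against 2 and 5.

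Of the chaperone lists, the genes that could be followed in rank moved toward the top. The 6 lists of chaperones and co-chaperones held 66 genes, of which 30 were occupied in all 4 lists. They are called chaperone genes here, though they include HSP30, HSP12 and MBF1, whose products have other roles. Their median rank was 55.5 and 57.0 after heat shock, against 193.5 and 270.5 in untreated cells, while the median over all 1167 such ORFs was 372 and 362 against 370 and 381. The mean rank percentile was higher after heat shock for 29 of the 30, beside 546 higher and 621 lower of all 1167. By 10 percentile points or more, with the 2 groups not overlapping, 11 of the 30 moved up, beside 140 of all 1167 (12.0%). Because a percentile has little room to rise for a gene that already ranks high, a second measure was added after the data were seen: the geometric mean rank was at least halved or at least doubled, with the 2 groups not overlapping. By this measure 83 of 1167 ORFs (7.11%) had their rank at least halved and 67 of 1167 (5.74%) at least doubled. Among the 30 chaperone genes 19, with HSP12 and MBF1 among them, had their rank at least halved and 0 had it doubled.

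The motifs of several of these genes are shown first, because they are the sites through which Hsf1 is known to act. A search of the 250 bases before to 50 after each start codon for 3 alternating GAA and TTC units spaced by 2 bases (GAANNTTCNNGAA or TTCNNGAANNTTC) found a match at 7 of the 83 ORFs whose rank was at least halved, and 6 are printed, 5′ to 3′ on the coding strand with the HSE in capitals. Coordinates are those of R64, and the sequence was read from RefSeq's R64 genome.
SSA2 (chrXII:97693-97732, minus strand): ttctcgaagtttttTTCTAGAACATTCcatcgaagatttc
HSP42 (chrIV:806371-806410, plus strand): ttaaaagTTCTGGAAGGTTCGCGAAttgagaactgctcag
HSP78 (chrIV:974454-974493, minus strand): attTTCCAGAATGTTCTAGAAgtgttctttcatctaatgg
HSP10 (chrXV:370979-371018, minus strand): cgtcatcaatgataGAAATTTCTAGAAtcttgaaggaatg
FES1 (chrII:444839-444878, minus strand): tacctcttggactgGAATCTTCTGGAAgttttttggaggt
STI1 (chrXV:380823-380862, plus strand): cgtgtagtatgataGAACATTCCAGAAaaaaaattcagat

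In the sequences of HSP42 and HSP78 the capitals run over more than 3 units. The peaks of HSP42 and FES1 held no other ORF, whereas that of SSA2 also held POM33, that of HSP10 held MCO10 and that of STI1 held HST3 and BUB3 in every list, and that of HSP78 held YAP6 in heat shock replicate 1. HSP42 (YDR171W), a small heat shock protein that gathers misfolded proteins in the cytosol, ranked 10 and 21 after heat shock, against 48 and 226. HSP78 (YDR258C), the mitochondrial disaggregase, ranked 24 and 51 against 86 and 441. SSA2, a constitutive cytosolic Hsp70, ranked 6 and 8 after heat shock, against 21 and 82 in untreated cells. The heat shock ranks of all 3 genes were better than both untreated ranks, and in each case untreated replicate 1 stood nearer to the heat shock lists. HSP10, the co-chaperonin of Hsp60 in mitochondria, ranked 68 and 94 against 187 and 263. FES1, a nucleotide exchange factor of cytosolic Hsp70, ranked 77 and 100 against 236 and 529. STI1, which bridges Hsp70 and Hsp90, ranked 72 and 59 against 191 and 484. In untreated replicate 1 these 3 genes lay lower than HSP42, HSP78 and SSA2, and their groups were separated in the same order. The seventh ORF with such a match, LST8, shares a peak with SIS1, described next.

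The Hsp70 genes differed in where they started. SSA4 (YER103W, chromosome V, 364589 to 366517), a stress-inducible cytosolic Hsp70, ranked 18 and 31 after heat shock, against 200 and 1059 in untreated cells, on a peak that took in RTT105 in heat shock replicate 2. Its rank percentile was 98.9 and 98.0 against 86.7 and 30.6, a difference in means of 39.8 points. SSE2, an Hsp110 that acts as exchange factor for Hsp70, ranked 136 and 132 against 333 and 772, on a peak that held no other ORF. Both were thus found in every list and stronger after heat shock, though with a wide gap between the untreated replicates. SSA1 (YAL005C), a constitutively expressed Hsp70, ranked 16 and 5 against 24 and 54, on a peak shared with EFB1. SSA3 (YBL075C, chromosome II, 84499 to 86448), the other stress-inducible Hsp70 gene, lay wholly under peaks after heat shock, with ranks of 862 and 384, and not at all in untreated cells. Its peaks held no other ORF.

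The 2 Hsp90 genes were both near the top of every list. HSP82 (YPL240C), the inducible form, ranked 11 and 9 after heat shock, against 15 and 80, and HSC82, the constitutive form, ranked 13 and 17 against 30 and 100. In untreated cells the HSP82 peak ended before SUI3 (YPL237W, chromosome XVI, 100496 to 101353), the gene for a subunit of translation initiation factor eIF2. After heat shock a single peak from 94898 to 101448 (replicate 1) held HSP82, CIN2, YAR1 and SUI3, so SUI3 took rank 11 and 9 against 1028 and 1085. The difference in rank percentile, 69.3 points, was the largest upward one of any ORF, and it belongs to this joined peak, not to a peak on SUI3 alone. YAR1 (YPL239W), which encodes a chaperone of the ribosomal protein Rps3, was under no peak in untreated cells and fully under this peak after heat shock.

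Of the disaggregase and small heat shock protein list, 7 of 7 genes occupied in all lists had a higher mean percentile after heat shock. HSP104 (YLL026W), the cytosolic disaggregase, ranked 7 and 39 after heat shock, against 22 and 276, on a peak shared with ISA1 and, in the second replicate of each group, with FRA1 and TPO1. Here the groups overlapped, since untreated replicate 1 ranked better than heat shock replicate 2. HSP12 (YFL014W), a small membrane-associated protein, ranked 52 and 35 against 301 and 195. Its peak also held MDJ1 and YFL015C in every list, and LPD1, GNA1 and SMX2 in every list but untreated replicate 2. MBF1, a transcriptional coactivator counted in this list, ranked 9 and 10 against 12 and 40. BTN2, a sorting factor for misfolded proteins that shared its peaks with VPS62, ranked 37 and 110 after heat shock, against 287 in untreated replicate 1 and no peak in untreated replicate 2. HSP30 (YCR021C, chromosome III, 156109 to 157107), a negative regulator of the plasma membrane proton pump, was fully under a peak of rank 83 and 30 after heat shock and under none in untreated cells. The neighboring YCR022C lay under that same peak.

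SIS1, an essential Hsp40, ranked 59 and 80 against 196 and 394, and in every list its peak also held LST8 (a subunit of the TOR complexes) and MRP7 (a mitochondrial ribosomal protein). In untreated cells the peak ran on over HRB1 and PET8. After heat shock PET8, a mitochondrial carrier gene, had a weak peak of its own, with ranks of 1282 and 1426, and HRB1 was lost. The percentile of PET8 was 16.8 and 4.68 after heat shock, against 87.0 and 74.2, a difference of −69.9 points that goes with the end of the SIS1 peak. APJ1, an Hsp40, was fully covered after heat shock by a peak shared with TPM1 and NIS1 and to a share of 0.274 and 0.0523 in untreated cells. MGE1 (YOR232W), the exchange factor of mitochondrial Hsp70, was the only one of the 66 chaperone genes to be lost, with a share of 0.264 and 0.224 after heat shock, against 1 and 1. In the 6 lists only 4, 6, 4, 7, 7 and 3 genes were occupied in both untreated lists and could be lost. Of all such ORFs 7.33% were lost. CCT2, a subunit of the cytosolic chaperonin that was in none of the chaperone lists, was lost too, with shares of 0.144 and 0.128 against 0.894 and 1.

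**Figure D1:**
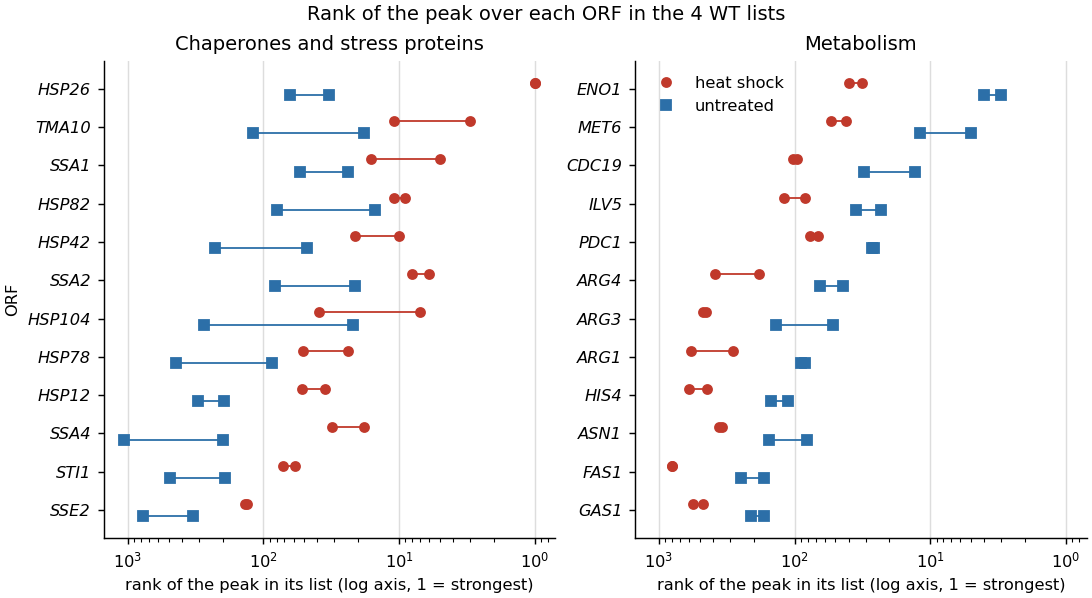
Ranks of the peaks of selected ORFs in the 4 WT lists, on a log axis with rank 1 the strongest, for 12 chaperone and stress genes and 12 metabolic genes. Circles are heat shock lists, squares are untreated lists, and a line joins the 2 replicates of a group. HSP26 stands at rank 1 in both heat shock lists, HSP104 is a gene whose groups overlap, and the metabolic genes lie the other way. ENO1 stands at 40 and 32, on a peak that was longer after heat shock, against 4 and 3.

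Most genes of the stress lists outside the chaperones moved in the same direction. Of 16 small stress-induced proteins occupied in all lists, 15 had a higher mean percentile after heat shock. RTN2, CYC7 and MSC1 moved up by 10 points or more (18.8%, beside 12.0% of all ORFs). In this list 5 had their rank at least halved (RTN2, CYC7, PNC1, MSC1 and DDR2), beside 7.11% of all ORFs. DDR2, a multistress response protein of unknown mechanism, ranked 25 and 12 after heat shock, against 64 and 125. CYC7, the isoform of cytochrome c made under stress and low oxygen, ranked 53 and 69 against 256 and 313, where the untreated peaks also held UTR2. RTN2, a reticulon of the endoplasmic reticulum, ranked 112 and 102 against 237 and 724, with YDL204W-A under the same peaks. For each of the 3 genes the groups were separated. TMA10, a ribosome-associated protein that was in none of the lists, had one of the 10 strongest peaks in heat shock replicate 1 and ranked 3 and 11 against 18 and 120.

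Carbohydrate reserve genes followed. All 10 genes of trehalose and glycogen metabolism that were occupied in every list had a higher mean percentile after heat shock. Of these, 3 (UGP1, TSL1 and PGM2) had their rank at least halved, beside 7.11% of all ORFs. PGM2, the major phosphoglucomutase, ranked 23 and 29 after heat shock, against 41 and 268, and TSL1, a subunit of trehalose synthase, ranked 29 and 38 against 55 and 254. YMR105W-A lay under the PGM2 peak in every list, and CUE4 under the TSL1 peak in heat shock replicate 2. NTH1, TPS2 and GDB1 moved up by 10 points or more, which 140 of 1167 ORFs did (12.0%). NTH2, a trehalase, was gained at shares of 0.546 and 1 after heat shock, against 0.146 and 0.199, under a peak that it shared with HTA2 and HTB2. The list thus held genes that make and genes that break down trehalose, and both kinds stood higher. Among 13 carbohydrate stress isozymes occupied in every list, 10 were higher and 3 lower in mean percentile. GRE3 and GAD1 moved up (15.4%) and HXK2 moved down (7.69%), near the 12.0% and 8.31% of all ORFs.

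Among genes of oxidative stress defense 7 of 18 moved up (PRX1, GRX1, TSA2, HYR1, GTT1, GPX1 and CCP1) and 1, GRX5, moved down, beside 12.0% and 8.31% of all ORFs. In mean percentile 13 of the 18 were higher and 5 lower. The rank was at least halved for TSA2, SOD1 and GPX1, beside 7.11% of all ORFs. It was at least doubled for TRX1, which shares the PDC1 peak, beside 5.74%. TSA2 (YDR453C), a thioredoxin peroxidase on a peak of its own, had a percentile of 66.7 and 59.6 after heat shock, against 27.5 and 15.4. GPX1 (YKL026C), a phospholipid hydroperoxide glutathione peroxidase, also alone under its peak, had 88.2 and 86.4 against 79.2 and 43.7. CTT1 (YGR088W), the cytosolic catalase, ranked 147 and 221 after heat shock, against 528 in untreated replicate 1 and no cover in untreated replicate 2, and so fell under no call. NNR1 (YNL200C), an NADHX epimerase that repairs damaged NADH, showed the largest upward move of any ORF alone under its peak, with 66.5 and 67.0 after heat shock, against 22.2 and 13.6. CUP1-1, a metallothionein gene, ranked 293 and 252 against 744 and 1250, but it and CUP1-2 are near-identical repeated copies, and how their reads were shared out is unknown, so these values are uncertain.

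The STRE sites of some of these genes are printed next with the STRE (CCCCT, or AGGGG on the other strand) in capitals, because this element was the one most often found before the ORFs that moved up. The copy nearest the start codon is the one shown.
HSP12 (chrVI:107048-107087, plus strand): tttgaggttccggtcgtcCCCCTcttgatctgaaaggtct
DDR2 (chrXV:231909-231948, minus strand): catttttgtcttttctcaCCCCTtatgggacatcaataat
SSE2 (chrII:576201-576240, minus strand): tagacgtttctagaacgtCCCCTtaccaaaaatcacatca
GPX1 (chrXI:390094-390133, minus strand): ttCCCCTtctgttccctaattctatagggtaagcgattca

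An STRE on either strand was present in the 300-base windows of 48.6% of the 140 ORFs that moved up and of 51.8% of the 83 whose rank was at least halved. The 140 ORFs lay under 98 peaks in heat shock replicate 1, and 41 had peaks that held no other ORF. Neighbors that share a peak are thus counted separately here, and windows of adjacent ORFs can overlap. The STRE was present at 34.0% of the 1167 ORFs occupied in all 4 lists and at 21.6% of the 6001 ORFs with a full window. At ORFs that moved down it was found in 21.6%, and at those whose rank was at least doubled in 20.9%. The HSE of 3 units was rare in general, at 0.783% of all windows and 1.54% of ORFs occupied in all 4 lists. It was found at 4.29% of ORFs that moved up, 8.43% of those whose rank was at least halved and 0% of those that moved down. Among lost ORFs it was found at 1.90% (UTR2 and ALD5), and among gained ORFs at 0%. An HSE of only 2 units (GAANNTTC or TTCNNGAA), which the longer element contains, was found at 30.1% of the ORFs whose rank was at least halved. At ORFs that moved up it was found in 23.6% and at gained ORFs in 16.4%. These compare with 21.1% of ORFs occupied in all 4 lists and 22.6% of all ORFs. The PAC element (GATGAG on either strand), a motif of ribosome assembly genes, was found at 19.3% of ORFs that moved up and 11.3% of those that moved down, against 20.4% of all ORFs. A matched sequence is a description and does not show that a factor was bound.

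**Figure D2:**
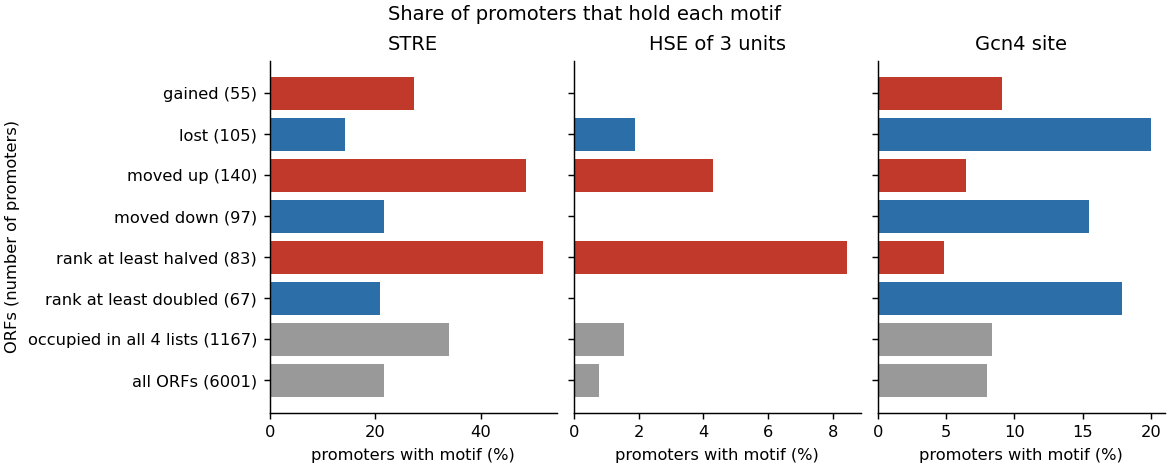
Percent of promoter windows (250 bases before to 50 after the start codon) that hold each motif, for the sets of ORFs defined by heat shock and for all ORFs. Red bars are sets higher and blue bars sets lower after heat shock, grey bars are reference sets, and bars start at 0. STRE is found in 48.6% of the ORFs that moved up and in 21.6% of those that moved down.

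Beyond ranks, 55 ORFs were gained, that is, occupied in both heat shock lists and in neither untreated list, out of 4081 that untreated lists left free (1.35%). Of these, 24 stood alone and 31 were extended, meaning that the peak also held a neighbor occupied in an untreated list. The count was 97 without heat shock replicate 1, 120 without heat shock replicate 2, 142 without untreated replicate 1 and 85 without untreated replicate 2. Of the 66 genes of the chaperone lists 3 were gained (SSA3, HSP30 and APJ1), and 8 without untreated replicate 1. Full cover in both heat shock lists with none in either untreated list was seen for 11 ORFs. Beside SSA3, HSP30, YCR022C and YAR1 these were SPI1, YNL194C, ATG40, GND2, CPP3, YDR034C-A and YER181C. SPI1 (YER150W), a cell wall protein known to be induced by stress, lay alone under peaks of rank 347 and 320. YNL194C, an integral membrane protein of cortical domains, was alone at rank 742 and 517, and ATG40, a receptor for autophagy of the endoplasmic reticulum, was alone at rank 1018 and 1154. GND2, the minor 6-phosphogluconate dehydrogenase, came under the strong ENO1 and COQ6 peak after heat shock (rank 40 and 32).

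Other gained ORFs were partly covered before. ALD3 (YMR169C), a stress-induced aldehyde dehydrogenase, was covered to a share of 1 and 1 after heat shock at rank 383 and 265, against 0.0947 and 0.0105 in untreated cells. FMP45 (YDL222C), a relative of the cortical membrane protein Sur7, had shares of 1 and 1 at rank 318 and 139, against 0.122 and 0.189. GRE1 (YPL223C), a hydrophilin of osmotic stress, had 1 and 1 against 0 and 0.150. All 3 lay alone under their peaks. SIP18, a paralog of GRE1, was covered to 0.938 and 1 by the DDR48 peak after heat shock, against 0 and 0.288. USV1, a zinc finger transcription factor, and its neighbor YPL229W shared a peak, and USV1 had shares of 1 and 1 against 0.381 and 0.336. Gained and lost are calls on peaks over the threshold, and a peak list does not say how far below it an uncalled gene lay. Just inside the limit of 0.5 for gain were YCF1, at 0.501 and 0.572 after heat shock, and HOT13, at 0.593 and 0.547. STRE windows made up 27.3% of the 55, and none of the 55 held an HSE of 3 units in the same window.

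**Figure D3:**
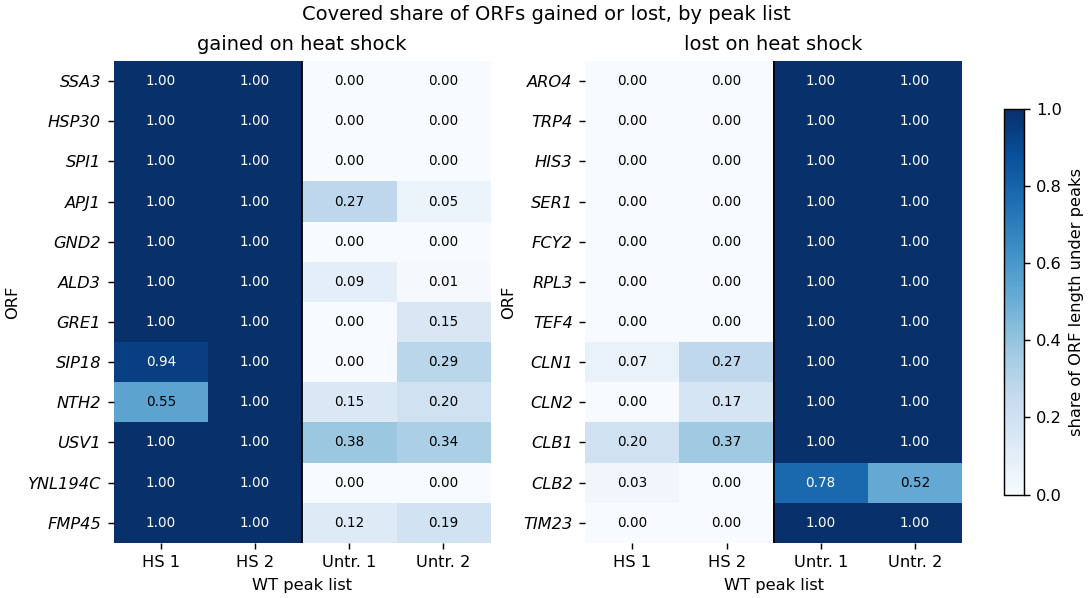
Heat map of the share of ORF length under peaks for 12 gained and 12 lost ORFs (rows) in the 2 heat shock (HS) and 2 untreated (Untr.) WT lists (columns). Dark cells are fully covered: SSA3, HSP30 and SPI1 are at 1 in both heat shock lists and at 0 in both untreated lists, and ARO4, TRP4 and HIS3 the reverse.

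Lost ORFs were more numerous than gained ones. Of the 1433 ORFs occupied in both untreated lists, 105 (7.33%) were occupied in neither heat shock list. Of these 46 stood alone and 59 had untreated peaks that also held a neighbor occupied in a heat shock list. The count was 198 without heat shock replicate 1, 173 without heat shock replicate 2, 235 without untreated replicate 1 and 208 without untreated replicate 2, since fewer lists then had to meet the rule. No cover in either heat shock list with full cover in both untreated lists was seen for 17 ORFs. ARO4 (YBR249C, chromosome II, 716882 to 717994), which makes the first enzyme of aromatic amino acid synthesis, was such an ORF, with a share of 0 and 0 after heat shock against 1 and 1 at rank 683 and 679. FCY2 (YER056C), a purine and cytosine permease, had a share of 0 and 0 after heat shock, against 1 and 1 at rank 116 and 298. Its untreated peaks ran on over HIS1 and, in replicate 1, as far as HOM3. GCS1 and APN1 (a GTPase activator and an endonuclease of DNA repair) and SFG1 (a transcription factor of cell cycle and filamentous growth) were the other stand-alone cases in this set, with SCM4, whose peak also held UFD1.

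Of the gene lists, amino acid biosynthesis had the most losses. Of 71 such genes 31 and 27 were occupied after heat shock, against 49 and 48 in untreated cells. Loss was called for 13 of 44 (among them ARO4, ARO3, ARO1, TRP4, TRP5, LYS1, ARG56, ARG7, THR1, ILV3, SER1 and HIS3), beside 7.33% of all ORFs that could be lost, and gain for 0 of 18. Of the 24 genes that kept their peaks 20 had a lower mean percentile after heat shock, and 10 moved down by 10 points or more, beside 97 of 1167 ORFs (8.31%). The rank of 11 was at least doubled, beside 5.74% of all ORFs. MET6 and TRP5 show both kinds of change. MET6, methionine synthase, kept one of the strongest peaks, which it shared with IES5, with rank 42 and 54 after heat shock, against 5 and 12. TRP5 (YGL026C), tryptophan synthase, lay alone under its peak and was covered to 0.169 and 0.146 after heat shock, against 1 and 1.

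HIS4 (YCL030C), an enzyme of 3 histidine steps, ranked 444 and 598 after heat shock, against 148 and 112. ARG3 (YJL088W), ornithine carbamoyltransferase, ranked 447 and 471 against 136 and 52. ARG4, argininosuccinate lyase, ranked 184 and 386 against 65 and 44 on a peak shared with YSC83 and YSC84 except in untreated replicate 2. In these 3 genes the groups were well apart, and HIS4 and ARG3 lay alone under their peaks. ARG1, argininosuccinate synthetase, ranked 282 and 581 against 89 and 84 on a peak shared with GPD2. ASN1, asparagine synthetase, ranked 342 and 360 against 155 and 81. CPA1, the small subunit of carbamoyl phosphate synthetase, ranked 604 and 267 against 233 and 65, a narrower gap than the others. Permeases showed the same direction, with 0 of 8 higher and 8 of 8 lower in mean percentile, beside 546 higher and 621 lower of all 1167 ORFs. Among them were CAN1, the arginine permease, at rank 741 and 527 against 339 and 149, and AGP1, a broad amino acid permease, at 91 and 67 against 51 and 16.

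The Gcn4 site was searched for after these values were seen. The following windows show it (TGACTC, on either strand) in capitals at ORFs that were lost or moved down.
ARG4 (chrVIII:141559-141598, minus strand): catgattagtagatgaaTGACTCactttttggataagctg
HIS4 (chrIII:68510-68549, minus strand): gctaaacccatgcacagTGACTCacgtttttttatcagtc
ASN1 (chrXVI:822376-822415, plus strand): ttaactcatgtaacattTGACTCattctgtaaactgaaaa
HIS3 (chrXV:721807-721846, plus strand): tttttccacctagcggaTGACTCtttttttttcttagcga
TRP4 (chrIV:1184565-1184604, plus strand): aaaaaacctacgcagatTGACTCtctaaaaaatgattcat

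TGACTC was found at 21 of the 105 lost ORFs and 17.9% of the 67 ORFs whose rank was at least doubled, against 4.82% of those whose rank was at least halved and 7.98% of all ORFs. Among amino acid biosynthesis genes it was frequent whatever they did, at 37 of 71 (52.1%). It was found at 9 of 13 that were lost (69.2%) and 4 of 11 whose rank was at least doubled (36.4%), beside 5 of 13 others that kept their peaks (38.5%). Of the 21 lost ORFs with the site 9 were thus genes of this pathway, and of the 12 with the site whose rank was at least doubled 4 were.

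Of the sulfate assimilation and methionine cycle list 19 and 15 of 28 genes were occupied after heat shock, against 22 and 20, and of 15 occupied in every list 3 were higher and 12 lower, with a median of −8.62 points beside −0.322 over all ORFs. Of these 15, MET14, MET22 and SAM3 moved down, beside 8.31% of all ORFs. MET8 and MET30 moved up, which at 13.3% is near the 12.0% of all ORFs. MET10 and ADO1 were lost of 20, beside 7.33% of all ORFs that could be lost. These losses are too few to be read as a result about the list. In sterol and fatty acid synthesis 6 of 24 genes were lost (OLE1, ERG4, ERG6, ERG26, ACC1 and FAS2) and ERG1, ERG5, ERG13 and FAS1 moved down among 17, beside 7.33% and 8.31% of all ORFs. At a minimum share of 0.25 the number lost was 3. FAS1 (YKL182W), the beta subunit of fatty acid synthase, lay alone under its peak and ranked 795 and 805 after heat shock, against 168 and 250. FAS2, its alpha subunit, was covered to 0.252 and 0.0832 against 1 and 1, on an untreated peak shared with SSO1. ACC1, acetyl-CoA carboxylase, had 0.167 and 0.101 against 1 and 1. The 3 genes of the fatty acid synthesis machinery were thus all lower, and OLE1, the desaturase, was covered to 0.288 and 0.272 after heat shock, against 1 and 1.

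Ribosomal protein genes (RPGs) were thinly covered in every list, with 15 and 10 of 137 occupied after heat shock, against 44 and 19. The untreated replicates were far apart in this list, and the 44 comes from replicate 1 alone. Loss was called for 7 of the 19 occupied in both untreated lists, beside 7.33% of all such ORFs. RPL10 (YLR075W), a protein of the large subunit alone under its peak, was covered to 0 and 0 after heat shock, against 1 and 0.994. RPL4A (YBR031W) kept a peak of its own and ranked 1309 and 1287 against 539 and 369, a difference of −55.4 percentile points and the largest downward move of any ORF alone under its peak. Without untreated replicate 2 the count lost was 28, without untreated replicate 1 it was 7, and at a minimum share of 0.9 it was 3. Of 124 ribosome assembly genes 1 was occupied in each list, YAR1 in the heat shock lists (gained) and NOP10 in the untreated lists (lost, with shares of 0 and 0 against 0.740 and 1).

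Genes of glycolysis and fermentation were occupied at 18 and 18 of 24 after heat shock, against 21 and 20, and ALD5 was lost of 20, beside 7.33% of all ORFs. All 15 occupied in every list had a lower mean percentile after heat shock, with a median percentile of 96.8 and 97.3 against 98.3 and 98.4. ADH4 and PFK1 moved down (13.3%, beside 8.31% of all ORFs). The rank was at least doubled for 6 of them (CDC19, TPI1, ADH4, ENO1, TDH2 and PDC1), beside 5.74% of all ORFs. ENO1 (YGR254W), enolase, ranked 40 and 32 after heat shock, against 4 and 3, and its peak was longer after heat shock, when it took in GND2. In replicate 1 the peak ran from 1000536 to 1007327 after heat shock and from 1000606 to 1004103 in untreated cells. Fold enrichment is a mean over the peak, so these ranks belong to different spans, and the part of the longer span in the fall was not tested. CDC19, pyruvate kinase, ranked 103 and 96 against 13 and 31, on a peak that also held CLN3 and CYC3 in every list but untreated replicate 1. PDC1, pyruvate decarboxylase, ranked 67 and 77 against 26 and 27 on a peak shared with TRX1. The groups were separated for all 3 genes. By contrast the citric acid cycle and respiration genes stayed occupied almost throughout (42 and 41 of 42 against 42 and 42). In mean percentile 26 of them were higher and 15 lower, and the cell wall list had 0 higher and 14 lower, beside 546 and 621 of all ORFs. Proteasome and ubiquitin genes showed little net change, with 34 and 34 of 39 occupied against 35 and 36. RPT1 was lost of 35, and RPT2 and RPN9 moved up and RPN2 down of 32, beside 7.33%, 12.0% and 8.31% of all ORFs.

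Cyclins, counted after the data were seen, were occupied at 5 and 6 of 23 genes after heat shock, against 11 and 11, and 6 of the 11 were lost, beside 7.33% of all ORFs that could be. At minimum shares of 0.25 and 0.9 the number lost was 3. CLN2 (YPL256C, chromosome XVI, 64977 to 66614), a G1 cyclin, lay alone under its untreated peak and had a share of 0 and 0.167 after heat shock, against 1 and 1. CLN1, its paralog, had 0.0689 and 0.266 against 1 and 1, on an untreated peak shared with ROT1. CLB2 (YPR119W), the main mitotic cyclin, had 0.0339 and 0 against 0.783 and 0.522. CLB1, PCL2 and CLG1 were the remaining 3, and the lost genes thus included G1, mitotic and Pho85 cyclins. RPO21, the gene of the RNAPII subunit that the antibody recognizes, was itself lost, with shares of 0.432 and 0.406 after heat shock, against 1 and 0.770, close to the limit of 0.5.

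**Figure D4:**
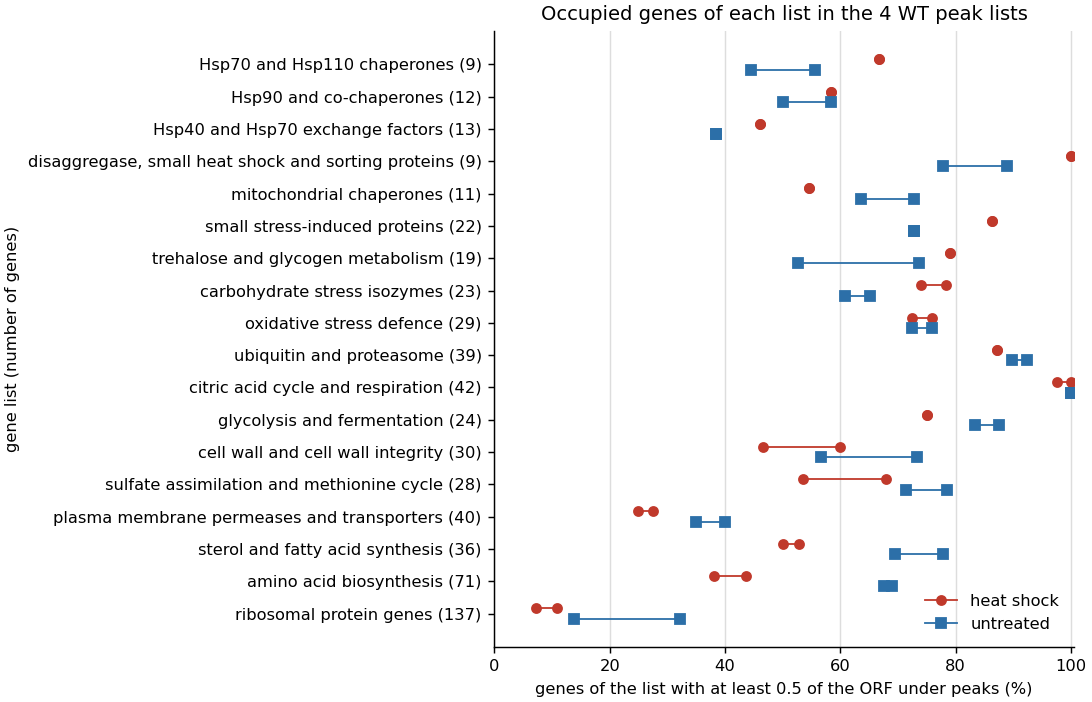
Percent of the genes of each list that were occupied in each WT list, with circles for heat shock, squares for untreated lists, a line between replicates, and the number of genes in brackets. Amino acid biosynthesis (31 and 27 of 71 after heat shock, against 49 and 48) shows a wide gap, whereas the untreated replicates of the ribosomal protein genes lie far apart (44 and 19 of 137).

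Loss of an ORF often left cover at its start. At the 105 lost ORFs the start of the ORF (its first 20th) lay under a peak in 58.8% and 50.8% of cases after heat shock, against 94.2% and 94.8%. The end of the ORF (its last 20th) lay under a peak in 15.2% and 15.8% after heat shock, against 80.1% and 85.7%. For the 46 that stood alone the start was covered in 62.4% and 55.9% against 91.3% and 92.5%, and the end in 7.71% and 6.64% against 67.4% and 78.2%. Cover was thus kept more often near the start codon than near the stop codon, in both heat shock lists, whereas the low cover at mid-ORF follows from the rule of 0.5. Gained ORFs were covered somewhat more often at the end than at the start, at 79.8% and 84.6% at the start and 89.1% and 92.7% at the end after heat shock, against 29.1% and 24.0%, and 31.5% and 26.5%. The 1167 ORFs occupied in all 4 lists had starts covered in 98.1% and 97.0% against 97.4% and 97.2%. Peaks were also narrower after heat shock, with a median width of 1288 and 1268 bp against 1429 and 1396 bp, and the part of peak width in these shares was not tested.

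**Figure D5:**
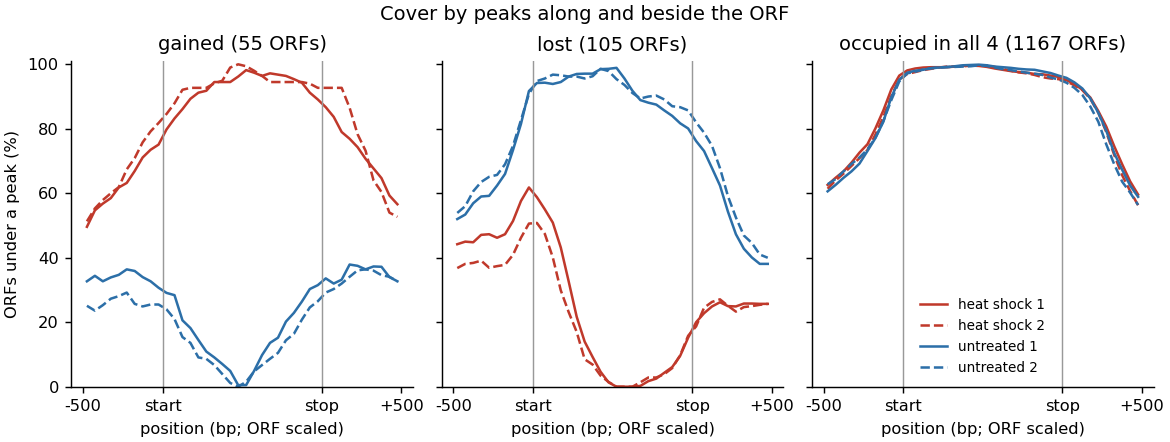
Percent of ORFs under a peak by position, from 500 bp before the start codon through the ORF, scaled to the same length, to 500 bp after the stop codon, for gained ORFs, lost ORFs and ORFs occupied in all 4 lists. Each line is 1 WT list. In the heat shock lists the lost ORFs are covered most around the start codon, and the 4 lines of ORFs occupied in all lists lie together.

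Genes for non-coding RNAs were counted in the same way. Of 275 tRNA genes, which RNA polymerase III transcribes, 74 and 91 were under peaks after heat shock, against 56 and 73, with 7 gained and 0 lost. The groups were separated by 1 gene, less than the spread between replicates. Of 76 snoRNA genes 61 and 58 were covered against 67 and 63, with 0 gained and 2 lost (SNR38 and SNR44). Gain was called for 1.35% of ORFs that could be gained, and loss for 7.33% of those that could be lost. Such shares were not counted for the non-coding genes, so their calls are not read as a result about them. Many of these genes lie next to protein-coding genes, and a wide peak can take them in.

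The ubc9-6 lists, which the calls did not use, gave values for the same ORFs. Of the 55 ORFs gained in WT 37 and 29 were occupied in ubc9-6 after heat shock, against 13 and 17 in untreated ubc9-6, and 13 of the 37 that untreated ubc9-6 lists left free met the rule for gain there, beside 4.76% of all such ORFs in ubc9-6. Of the 105 lost in WT, 43 and 46 were occupied in ubc9-6 after heat shock, against 71 and 67, and 22 of the 64 occupied in both untreated ubc9-6 lists met the rule for loss, beside 15.5% of all such ORFs. No ORF had the opposite call in ubc9-6, but 18 of the gained and 29 of the lost ORFs were in no ubc9-6 list at all. Another 10 of the gained and 37 of the lost ORFs were occupied in all 4 ubc9-6 lists. SSA3, SPI1, YNL194C and GRE1 had shares of 1 and 1 after heat shock and 0 and 0 untreated in ubc9-6, and ARO4 had 0 and 0 against 1 and 1. Other named genes differed: ALD3, FMP45 and USV1 had a share of 1 in all 4 ubc9-6 lists. HSP30 had 0.0821 and 1 in untreated ubc9-6, and ATG40 had 0 and 0.0376 in ubc9-6 after heat shock. RPGs differed between the strains in their cover at the outset, with 135 and 130 of 137 occupied in ubc9-6 after heat shock, against 137 and 136 in untreated ubc9-6. RPL10, lost in WT, was fully covered in all 4 ubc9-6 lists, where it ranked 201 and 309 after heat shock, against 49 and 51.

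Ranks could be followed in ubc9-6 for ORFs occupied in all 8 lists. Of the 87 such ORFs that moved up in WT, 75 had a higher and 12 a lower mean percentile after heat shock in ubc9-6, with a median difference of 23.7 points, beside 14.3 points in WT over the same ORFs. Of the 67 that moved down, 3 were higher and 64 lower in ubc9-6, with a median of −12.8 points, beside −19.2 points in WT. Over all 837 ORFs in the 8 lists 500 were higher and 336 lower in ubc9-6, with a median of 3.09 points, so the upward share has to be read against that shift. SSA1 ranked 2 and 2 in ubc9-6 after heat shock, against 23 and 46. HSP26 ranked 23 and 11 against 196 and 205, and HSP42 11 and 10 against 454 and 512, but the untreated ubc9-6 ranks of these 2 genes belong to longer peaks (371725 to 385035 for HSP26 and 806513 to 813276 for HSP42 in replicate 1). The effect of heat shock on covered length, WT minus ubc9-6, was −129559 bp, which an exact permutation of strain labels within treatment did not separate from the spread between lists (two-sided, p = 0.278, smallest possible 0.0556).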

How the data were processed

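RNAPII ChIP-seq was analyzed from 4 WT peak lists, with 4 ubc9-6 lists for values side by side. Input samples entered only as the caller's control. According to the study's methods and the labels, the authors used Trim Galore and Cutadapt on paired-end reads, aligned these to sacCer3 with Bowtie2 2.3.5 and called broad peaks for each replicate with MACS2 2.1.1.20160309, with input as control and a q-value limit of 0.1. The deposited lists give each peak's start and end and, from the authors' caller, a mean fold enrichment over input (a ratio) and the −log10 of its p-value and q-value. Reads and depth are not given, so fold was used only as a rank within a list, except where fold is printed for HSP26.

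ORFs were spans from start to stop codon of R64 genes, introns included. A gained ORF was covered to at least 0.5 in both heat shock lists and in neither untreated list, and a lost ORF the reverse. Moved up or down meant that the percentiles of the 2 groups did not overlap and that their means differed by at least 10 points. An ORF stood alone when its peak held at least 0.5 of no other ORF occupied in any list of the opposite group. With 2 lists against 2 these are counts without a test. Totals were compared by exact permutation tests. The study modeled reads over ORFs, which peak lists do not allow.

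The members and the gene lists were chosen with earlier results of these data known, as were the named genes: the 12 ORFs with the largest gain and the 12 with the largest loss of covered share, the 10 with the largest rise and the 10 with the largest fall in percentile, called members of the lists, 9 stress genes given whatever they did, and ORFs under the 10 strongest peaks. TMA10, NNR1 as a single peak, CCT2, RPO21, YCF1 and HOT13 were named after their values were seen. The rank at least halved or doubled, the Gcn4 site, the 500-base window and the cyclin and mitochondrial ribosomal protein lists were also added after the data were seen. Alternatives were other minimum shares, stricter peak sets, rank by −log10 q, single-ORF peaks, each list left out, and same-numbered pairs. Counting was tested on simulated lists. Python 3.11.15, numpy 2.4.6, pandas 2.3.3 and scipy 1.17.1 were used.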

Additional observations from a re-analysis of the deposited data

Results flagged for a closer look

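Among ORFs that moved up or down in WT, 5 went the other way in ubc9-6, where a difference in means of at least 10 points was also required. In these 5 both heat shock lists stood above both untreated lists in WT and below them in ubc9-6. The differences between the strains were not tested. HMO1, an HMG-box protein that binds RPG and ribosomal DNA promoters, differed by 10.9 percentile points in WT, heat shock minus untreated, and by −13.7 in ubc9-6. RPN9, a proteasome lid subunit, differed by 14.6 in WT and −14.4 in ubc9-6. APS1, a subunit of a clathrin adaptor complex, differed by 12.0 in WT and −10.2 in ubc9-6. SSP120 and its neighbor SYM1 share 1 peak and differed by 11.0 in WT and −42.0 in ubc9-6. In untreated ubc9-6 replicate 1 the peak holding HMO1 began at 806513, ahead of HSP42, and the peak holding SSP120 began at 636613, so both took the rank of a longer peak than in WT.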

How the results depend on the processing

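The lists carry no reads, so depth limits every call in a way that cannot be measured here. The counts of gained (55) and lost (105) ORFs stayed between 50 and 59 and between 85 and 100 with minimum shares of 0.25, 0.75 and 0.9 or with stricter peak sets. Signs were followed only for the totals and the named ORFs, and none changed. The groups did not overlap in any of these, so leaving out a list could not reverse them. The unchanged signs are therefore no measure of how firm the calls are. Leaving out a list loosens the rule by construction, and the counts were then 85 to 142 gained, 173 to 235 lost, 148 to 243 moved up (140 with all lists) and 155 to 229 moved down (97 with all lists). The widest gaps came without untreated replicate 1 (142 gained, 235 lost, 243 up and 229 down). Requiring 20 points gave 37 up and 46 down, peaks with a single ORF gave 41 and 38, and the rank at least halved gave 83 up. Of 337 further values for named ORFs and gene lists under alternatives, 309 moved by less than the limit set for them and 28 moved by more. RPGs lost were 28 without untreated replicate 2 and 3 at a share of 0.9, cyclins lost were 3 at shares of 0.25 and 0.9, and chaperone genes gained were 8 without untreated replicate 1. Amino acid biosynthesis genes lost were 12 to 18 under all alternatives.

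The replicate block compared same-numbered lists. It gave 47 gained, 89 lost, 63 moved up and 80 moved down, and p = 0.50 by the exact sign-flip permutation for occupied ORFs and covered length. Deviations of same-numbered lists correlated at 0.336 in covered share and 0.535 in rank percentile, but with 2 pairs and no label of a shared batch the lists share only a number.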

Other observations

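Mitochondrial ribosomal protein genes, a list added after the data were seen, were occupied at 38 and 36 of 79 genes after heat shock, against 45 and 42 in untreated cells. Of 39 that could be lost 5 were, and of 31 occupied in all 4 lists 4 moved up and 3 moved down, which is beside 7.33%, 12.0% and 8.31% of all ORFs. Histone and chromatin genes were occupied at 13 and 13 of 17 after heat shock, against 13 and 13. Hexose transporter genes were occupied at 2 and 5 of 13 after heat shock, against 4 and 4, and SUMO pathway genes at 2 and 1 of 12, against 1 and 1.

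With a window of 500 bases before the start codon an STRE was found at 56.4% of gained ORFs, 63.6% of those that moved up, 35.1% of those that moved down and 36.4% of all ORFs.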
